A study of Mus musculus with 8 samples.

Results

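The transcripts described here are those of 10 genes of the Hippo pathway: the kinases Lats1 and Lats2 with the scaffolds Nf2 and Sav1, the angiomotins Amot, Amotl1 and Amotl2, and the effectors Yap1, Wwtr1 and Tead1. They were found by gene name in the peak lists of 4 m6A immunoprecipitation libraries. The lists assigned 83 of 38705 m6A peaks to 9 of these 10 genes, among 9779 genes with a peak in any list. Sav1 had no peak in any library, and no peak assigned to another gene name lay on the exons of any of the 10 genes.

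The mark m6A, a methyl group at the N6 position of adenosine in mRNA, had been mapped by MeRIP-seq, in which an m6A antibody precipitates mRNA fragments (IP) that are sequenced beside the RNA before precipitation (input). The cells were mouse embryonic fibroblasts (MEFs), primary cells from wild-type C57BL/6 embryos at 13.5 days post-coitum, used at passages 5 to 6. Control MEFs received no treatment and starved MEFs were held for 2 h in medium deprived of nutrients, to ask how m6A on mRNA responds to the loss of nutrients. With 2 replicates per group, each giving an IP and an input library, there were 8 samples, and the IP libraries are called control 1, control 2, starved 1 and starved 2 below.

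In the Hippo pathway, upstream kinases activate the LATS kinases, which phosphorylate the coactivators YAP (Yap1) and TAZ (Wwtr1) and hold them in the cytoplasm. When the LATS kinases are inactive, YAP and TAZ enter the nucleus and drive transcription with TEAD proteins such as TEAD1, which bind the DNA. The pathway is known for controlling proliferation in response to cell contact, mechanical force and energy status, and Lats2 and Amotl2 are also known as YAP target genes, which closes a feedback loop.

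The immunoprecipitated sites were first examined as sequence. GGAC, a common form of the sequence in which the m6A methyltransferase acts, was searched on the transcribed strand only, in the 200 nt of spliced mRNA at the centre of each region (a region is the union of overlapping peaks over the 4 libraries). It was present in 25 of the 37 Hippo pathway regions (67.6%) and in 62.4% of all 18652 regions placed on a transcript. GGACT, which contains GGAC, was present in 9 of the 37 (24.3%) and in 26.1% of all. Of the 7 Hippo pathway regions called in every library, 5 held GGAC, where 66.5% of all such regions did. The shares of the Hippo pathway regions were thus close to those of all regions, and a match marks letters in the mRNA, not a mapped methylated base.

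The sites below are the GGAC nearest to the centre of each region that had a peak in all 4 libraries or in both libraries of a single group, since these regions carry the comparisons. GGAC is in capitals, sequences run 5′ to 3′ on the mRNA strand, and they were read from GENCODE M21 transcripts on mm10 (GRCm38).
Lats1 exon 5 (chr10:7705756-7705783, + strand): ctactctttccaGGACaaggacaacttg
Lats2 exon 2 (chr14:57734084-57734111, - strand): gggctgctggtgGGACcaaacagtgaca
Lats2 exon 8 (chr14:57690878-57690905, - strand): ctcaagtcacgaGGACcgcttatctaca
Amot exon 11 (chrX:145449724-145449751, - strand): tgtacaactcatGGACtattaaccagta
Amotl1 exon 3 (chr9:14593232-14593259, - strand): caacagcagcagGGACaggggcccctta
Amotl1 exon 13 (chr9:14547034-14547061, - strand): tggtgtccagatGGACagagcctcgtgt
Amotl2 exon 3 (chr9:102723702-102723729, + strand): cctgcagtggagGGACcacccagtgccc
Amotl2 exon 7 (chr9:102729435-102729462, + strand): gcagttcgccatGGACgcggctgccact
Wwtr1 exon 2 (chr3:57575167-57575194, - strand): cacgcaggacctGGACaccgacctcgaa
Tead1 exon 14 (chr7:112898642-112898669, + strand): caggcttgtgaaGGACtgaacctggtta
The sites of Amot, Amotl1 exon 13 and Lats2 exon 8 lay in 3′ UTRs and the others in coding sequence. In Tead1 the GGAC stood directly before the stop codon, in Wwtr1 it lay at -232 nt (upstream) from the region's centre, and in Amotl1 exon 13 at -161 nt, so these were not central to their regions. Sites were taken from merged regions, so a site need not lie under the peak of every library. The Wwtr1 GGAC lay under the peak of starved 1 only. The Lats1 GGAC lay past the end of the starved 1 peak, and the Amotl1 exon 3 GGAC in a gap between peaks of control 1.

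The 9 genes with peaks were covered about equally before and after starvation. Control 1 held 23 of their peaks, control 2 held 19, starved 1 held 23 and starved 2 held 18. The mean was 21.0 ± 2.83 (SD, n = 2) in control and 20.5 ± 3.54 (SD, n = 2) in starved libraries, a difference of -0.5 peaks that was smaller than the spread within either group. The whole lists held 10103, 9871, 9757 and 8974 peaks in the same order, and the Hippo pathway share of them lay between 0.192% and 0.236%.

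**Figure D1:**
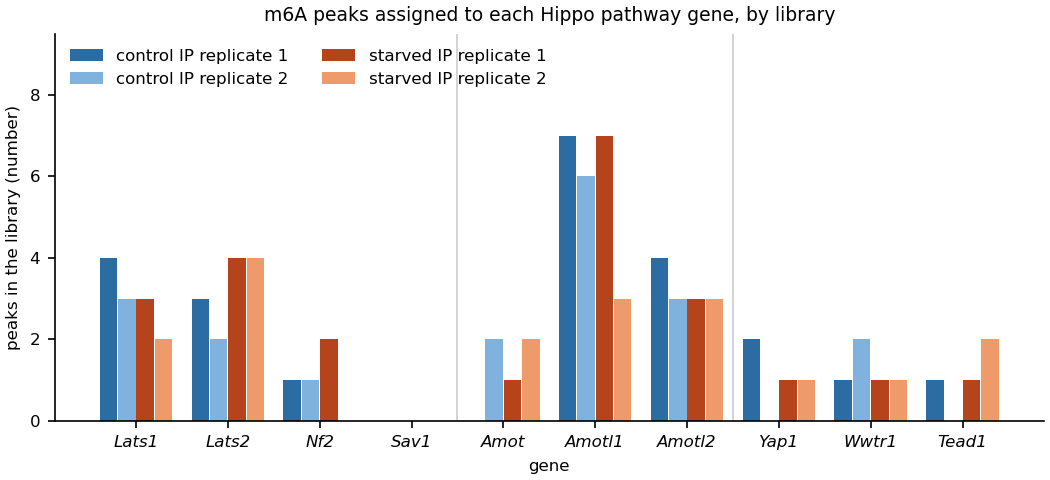
Bars give the number of m6A peaks assigned to each of the 10 genes (x axis) in each of the 4 IP libraries (y axis, number of peaks), with no error bar because a bar is 1 library, and vertical lines part kinases and scaffolds, angiomotins and effectors. Amotl1 has the tallest bars in control 1, control 2 and starved 1 (7, 6 and 7 peaks), Sav1 has none in any library, and Amot has none in control 1.

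The angiomotins carried 41 of the 83 peaks, the kinases and scaffolds 29 and the effectors 13. Amotl1 had 7 peaks in control 1, 6 in control 2, 7 in starved 1 and 3 in starved 2, where the median gene with a peak had 1. At least that many were seen in 0.438% of genes in control 1, 1.04% in control 2 and 0.487% in starved 1, but in 12.1% in starved 2. Its mRNA is also long, at 8957 nt with 45 GGAC, and 46.3% of it lay under a peak in starved 1. Lats2 was covered over a like share of a shorter mRNA of 5191 nt, from 37.6% in control 2 to 49.5% in control 1. Sav1, the scaffold that links the upstream kinases to the LATS kinases, has an mRNA of 2524 nt with 11 GGAC. Without peaks it has no value here. The depth of the libraries is unknown and the lists hold no expression levels, so a missing peak is not a measurement of 0.

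The fold enrichment of a peak is its IP signal over the input background, as given by the authors. The median over Hippo pathway peaks was 7.74 in control 1, 8.92 in control 2, 9.81 in starved 1 and 10.14 in starved 2. In each library this lay below the median of all peaks, which was 12.21, 12.27, 14.58 and 14.69 in that order. Both medians were higher in the starved libraries. Among the 3 classes the effectors had the lowest median in every library, at 4.77, 5.88, 7.69 and 7.46. These medians rest on only 4, 2, 3 and 4 peaks, and in control 2 on Wwtr1 alone. The kinases and scaffolds stood at 9.80, 8.04, 9.73 and 16.58, and the angiomotins at 8.34, 8.97, 11.95 and 8.68. Peaks of the same gene share its input coverage, so no test was made between classes.

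The score of a peak restates its p-value on a scale that rises as p falls (minus log10, times 10), and in these lists it piles up at exactly 3100, with a few values higher, up to 3233.06. Scores from 3100 upwards were given to 4, 3, 7 and 4 Hippo pathway peaks in control 1, control 2, starved 1 and starved 2. That is 17.4%, 15.8%, 30.4% and 22.2% of them, against 17.0%, 13.2%, 28.5% and 27.8% of all peaks. The deposited false discovery rate of the Hippo pathway peaks ran from 7.52% to 75.48%, and the lowest in any list was 5.56%. A peak called in 1 library alone has no replicate.

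The 83 peaks merged into 37 regions out of 21168 in the whole series. Of these, 7 (18.9%) had a peak in all 4 libraries, where 10.7% of all regions did. There were 15 regions (40.5%) called in 1 library, where the background was 56.2%, and 10 and 5 called in 2 and 3 libraries. The share of regions in all 4 libraries was thus higher for the Hippo pathway than for all regions, a difference that was not tested. By class, 3 of 13 regions of the kinases and scaffolds, 3 of 19 of the angiomotins and 1 of 5 of the effectors were present in all 4 libraries.

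By position, 20 of the 37 regions were centred in coding sequence (54.1%), 15 in a 3′ UTR (40.5%), 2 in a 5′ UTR and 0 within 100 nt of the stop codon. All placed regions of the series gave 43.9%, 38.6%, 5.7% and 11.9% for the same segments. Although no centre lay in the stop codon window, 7 of the 37 regions (18.9%) reached across a stop codon, as did 26.3% of all placed regions. The positions by class are counts of few regions and were not tested. Coding sequence held 9 of the 13 regions of kinases and scaffolds and 10 of the 19 of angiomotins, while a 3′ UTR held 4 of the 5 regions of effectors. Tead1 alone had 2 of these effector regions, and its 3′ UTR makes up 8147 of its 9964 nt. Within their transcripts, 16 of the 37 regions (43.2%) lay in the longest exon, against 61.5% of all. Of the 7 regions in all 4 libraries, 2 did so, against 66.8% of all such regions.

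**Figure D2:**
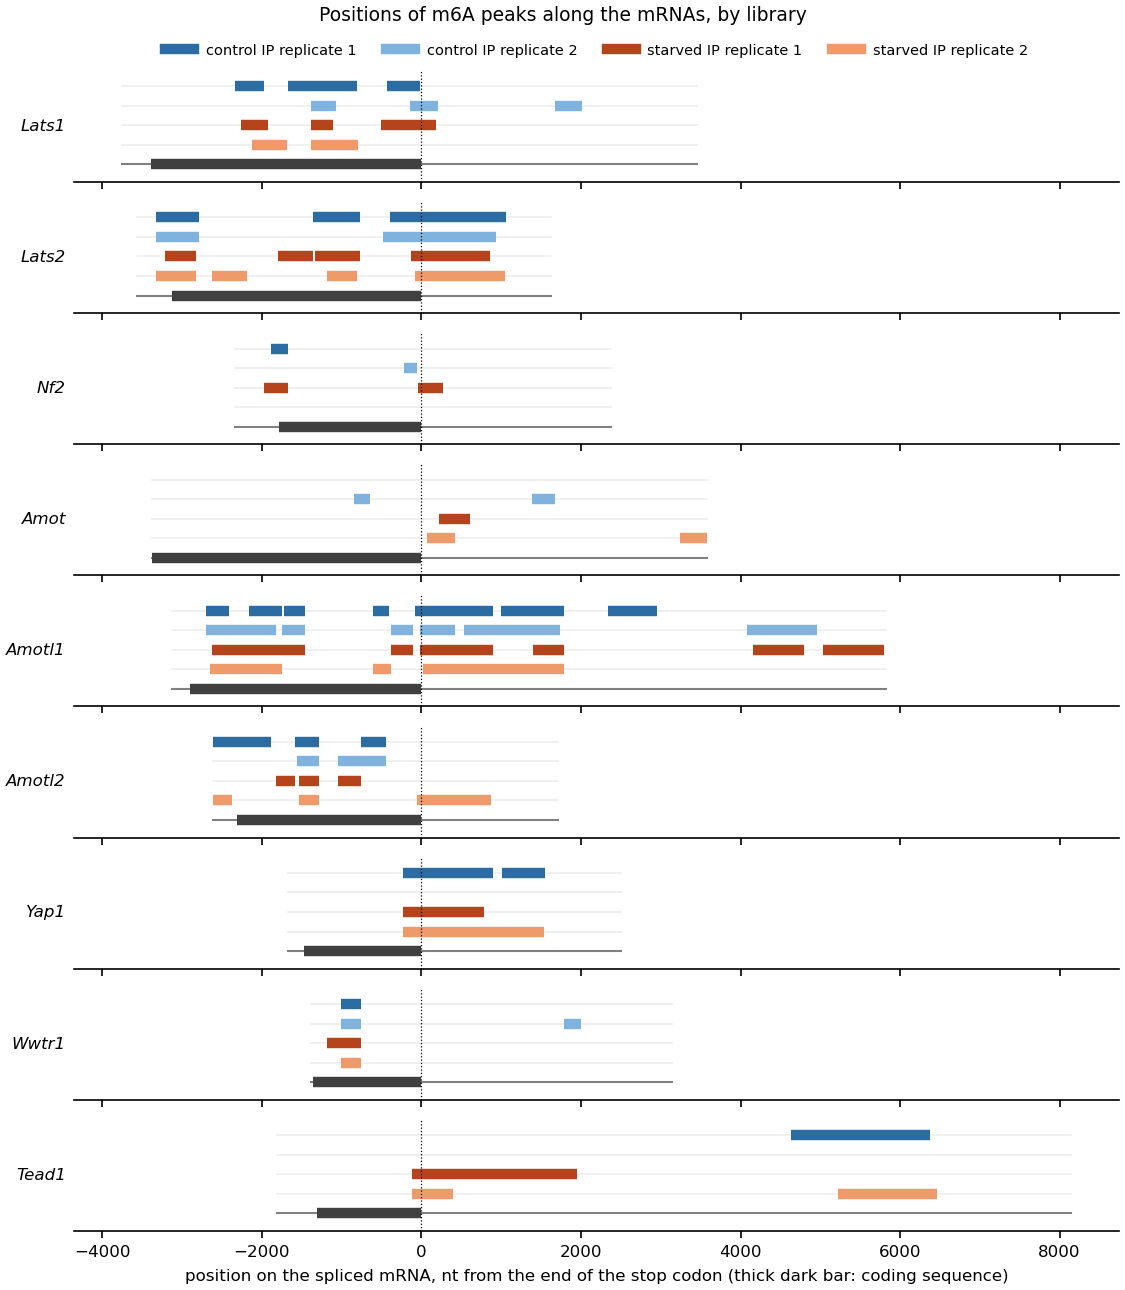
Each row of coloured bars shows the m6A peaks of 1 gene in 1 IP library along the spliced mRNA (x axis, nt from the end of the stop codon), and the dark bar and thin line mark coding sequence and UTRs of the transcript drawn. Peaks repeat in the same exons of Lats1, Lats2, Amotl1, Amotl2 and Wwtr1 in all 4 libraries, and lie mostly at different places in different libraries in Amot. They cross or adjoin the stop codon in Lats1, Lats2, Amotl1, Yap1 and Tead1, and in 1 library each in Nf2 and Amotl2.

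The authors kept peaks that overlap mRNA exons, and 51 of the 83 Hippo pathway peaks (61.4%) had an edge exactly at an exon end. There were 14 peaks, on 9 exons of 5 genes, that filled a whole exon from end to end, so the width of such a peak is the width of the exon. Adjoining peaks on neighbouring exons were counted as separate regions.

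Lats1 and Lats2 encode the kinases that phosphorylate YAP and TAZ. The most even of the 7 regions in all 4 libraries was Lats2 exon 8 (chr14:57690232-57691770), the terminal exon, over the stop codon and the first part of the 3′ UTR. Its fold enrichment was 39.04 in control 1, 37.18 in control 2, 37.80 in starved 1 and 34.73 in starved 2, with a score of 3100 in all 4. The log2 values averaged 5.25 ± 0.05 (SD, n = 2) over the controls and 5.18 ± 0.09 (SD, n = 2) after starvation, a difference of -0.07 (two-sided exact permutation p = 0.667, smallest possible 0.333). The values of both groups overlapped.

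Lats2 exon 2 (chr14:57733878-57734418), which holds the start of the coding sequence, was also called in all 4 libraries, at 12.25, 8.94, 4.93 and 12.10. Starved 1 was the low value, and starved 2 lay between both controls (log2 difference -0.44, exact permutation p = 0.667). Lats2 exon 5 (chr14:57696916-57697498) had 6.58 in control 1, 6.86 in starved 1 and 3.92 in starved 2, with no peak in control 2. Further regions on exon 4 were called in 1 library each, at 6.95 in starved 1 and at 32.56 in starved 2, the latter with a score of 3100.

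In Lats1 the region in all 4 libraries was exon 5 (chr10:7705460-7706042). Its fold enrichment was 13.83 in control 1, 7.14 in control 2, 9.66 in starved 1 and 11.59 in starved 2, and both starved values lay between the control values (log2 difference 0.09, exact permutation p = 1). Exon 8 (chr10:7712501-7713217), across the stop codon, had 18.39 and 4.97 in controls 1 and 2 and 17.39 in starved 1, with none in starved 2. Exon 4 (chr10:7702159-7702811) had 3.70 in control 1 and was absent from the list of control 2, while starved 1 had 14.81 and starved 2 had 21.06. Both starved values of exon 4 were thus above the single control value, as in 36.7% of all regions called in the remaining libraries when control 2 was left out. The other 2 Lats1 regions were weak and called in 1 library each, at 3.57 in control 1 on exon 4 and 6.72 in control 2 in the 3′ UTR.

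Lats1 and Lats2 are paralogs, and exon 5 of each was compared after the peak values had been seen. Both exons are 583 nt long and 76.3% identical over their aligned 583 nt, with a longest identical run of 22 nt. Lats1 exon 5 holds 5 GGAC and Lats2 exon 5 holds 8, and 5 of them lie at the same place in the alignment. Over the aligned parts of the other 6 coding exons, the genes hold 7 and 12 GGAC with 1 at the same place. Exon 5 had a peak in 4 libraries in Lats1 and in 3 in Lats2. The Lats1 peak of starved 1 ended before the GGAC of both printed Lats1 sites, and that of control 2 before the GGAC of the one printed below. Exon 7, at 77.6% identity, had no region in either gene. The Lats2 partner of the Lats1 site printed above and another of the shared pairs show how close these sites are.
Lats2 exon 5 (chr14:57697175-57697202, - strand): ctactccttccaGGACaaggacagcctg
Lats1 exon 5 (chr10:7705783-7705810, + strand): gtactttgtgatGGACtacattcctggg
Lats2 exon 5 (chr14:57697148-57697175, - strand): gtactttgtgatGGACtacataccaggc
In each of these pairs, 25 of 28 bases are identical, and over all 5 shared pairs the number ran from 22 to 25. Whether any of these adenosines is methylated cannot be read from peaks of this width.

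Nf2 encodes merlin, a membrane-associated scaffold that activates the LATS kinases. None of its 3 regions was called in all 4 libraries, and starved 2 held no Nf2 peak. The region at the start of the transcript (chr11:4848872-4849174, exon 1) had 7.35 in control 1 and 22.28 in starved 1, so each group had a value in 1 of its libraries. The highest fold enrichment of any Hippo pathway peak, 79.48 with a score of 3100, was on Nf2 exon 15 (chr11:4782130-4782352) in control 2 alone, and it reached past the end of that exon in the transcript drawn. A peak at 9.73 on exon 16 (chr11:4767956-4768273), across the stop codon, was in starved 1 alone.

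Angiomotins are membrane-linked scaffolds that bind YAP and can hold it out of the nucleus, and they also activate LATS kinases. Amotl2 exon 3 (chr9:102723463-102723863) was the only one of the 7 regions in all 4 libraries whose groups did not overlap. Its fold enrichment was 26.89 in control 1, 28.49 in control 2, 44.03 in starved 1 and 46.70 in starved 2. Both starved libraries were above both controls, and the spread within each group was small. The peak of control 1 was 401 nt long and reached past the exon of 295 nt in the transcript drawn. Those of control 2, starved 1 and starved 2 were 271, 252 and 243 nt long.

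On the log2 scale Amotl2 exon 3 averaged 4.79 ± 0.06 (SD, n = 2) in controls and 5.50 ± 0.06 (SD, n = 2) after starvation, a difference of 0.71 or 1.64-fold. Its exact permutation p was 0.333, the smallest that 2 against 2 libraries allow, so 0.05 could not be reached. It was thus 1 of 7 regions higher in both starved libraries, where 22.9% of all 2257 regions in all 4 libraries were. None of the 7 was lower in both starved libraries, against 18% of all. With each library centred on the median of its own list, the difference on Amotl2 exon 3 was 0.45 and its groups still did not overlap.

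Other Amotl2 regions varied more. Exon 7 (chr9:102729268-102729578) had 8.92 in control 1 and 10.61 in control 2, with no peak in either starved library. It was the only Hippo pathway region with this pattern, 1 of 37, where 4.15% of all regions had it. The neighbouring exon 6 had 6.30 in control 2 and 7.84 in starved 1, and exon 1 in the 5′ UTR had 7.74 in control 1 and 15.85 in starved 2. The remaining 3 regions were called in 1 library each, from 3.88 to 9.92.

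Amotl1 had 2 regions in all 4 libraries. Exon 13 (chr9:14546001-14547873), from the stop codon into the 3′ UTR, had 11.21, 9.33, 25.97 and 6.56 in control 1, control 2, starved 1 and starved 2. Exon 3 (chr9:14592754-14593711), in coding sequence, had 8.47, 9.65, 14.30 and 7.43. In both regions starved 1 was the highest and starved 2 the lowest of the 4 values, so the starved libraries spanned the controls. Their log2 differences of 0.35 and 0.19 (exact permutation p = 1 for each) were smaller than the spread between the starved libraries.

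Amotl1 exon 4 (chr9:14575151-14575435) was nearly level at 11.74, 10.64 and 11.95 in control 1, control 2 and starved 1, and had no peak in starved 2. A further 3 regions were each called in 1 control and 1 starved library. The far 3′ UTR (chr9:14542835-14543710) had 8.97 in control 2 and 9.81 in starved 1, exon 12 had 7.58 and 3.38 in the same libraries, and exon 11 had 3.74 in control 1 and 4.62 in starved 2. The 2 regions called in 1 library stood at 5.21 in control 1 and 16.20 in starved 1. Exon 4 was the only Amotl1 region that the other 3 libraries shared and starved 2, whose list was the shortest, lacked. The part of list length in this was not tested. The coding exons of Amotl1 with repeated signal were also aligned with Amotl2. Amotl1 exon 3 aligns with Amotl2 exon 2 at 65.9% identity, with 3 and 4 GGAC in the aligned parts and 0 at the same place. Amotl1 exon 4 aligns with Amotl2 exon 3 at 61.1%, with 1 and 3 GGAC and again 0 at the same place.

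Amot, the founding angiomotin, had the sparsest signal of the 3, with no peak in control 1. The region just after its stop codon (chrX:145449396-145449934, exon 11) had 3.54 in starved 1 and 3.87 in starved 2 and none in the controls. It was 1 of 2 Hippo pathway regions called in both starved libraries alone, where 3.2% of all regions had this pattern. Both values were near the lower end of the Hippo pathway peaks, which began at 2.83. Among peaks of at least 4-fold alone, and with equal numbers of peaks per library, this Amot region was lost, and Lats1 exon 4 had the pattern in its place. The other 3 Amot regions were called in 1 library each, from 6.07 to 10.36.

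Tead1 encodes a DNA-binding partner of YAP and TAZ. Its terminal exon 14, 8261 nt long, held both of its regions. The region across the stop codon (chr7:112898547-112900608) had 16.43 in starved 1 and 11.73 in starved 2 and no peak in either control. It was the other region called in both starved libraries alone. The second region, far into the 3′ UTR (chr7:112903287-112905118), had 10.71 in control 1 and 7.42 in starved 2. Control 2 held no Tead1 peak.

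Yap1 encodes YAP. Its single region covered the end of the coding sequence and much of the 3′ UTR (chr9:7932951-7934732, exon 9), with 5.99 in control 1, 7.69 in starved 1 and 7.49 in starved 2. Control 2 had no Yap1 peak, and both starved values were above the single control value. With control 2 left out, 36.7% of all regions called in the remaining libraries had this order.

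Wwtr1 encodes TAZ, the paralog of YAP. Its region in all 4 libraries lay on exon 2 in coding sequence (chr3:57574823-57575257), at 3.50, 8.92, 7.18 and 3.85. The scores were 71.53, 469.85, 81.62 and 93.31, near the lowest of the lists (50.01) in all but control 2. The deposited false discovery rates were 74.44%, 20.86%, 61.42% and 62.45%. The peak of starved 1 alone filled the whole exon of 435 nt, and the peaks of the other libraries were 252 or 253 nt long. The lowest and the highest value were both controls, and the log2 difference was -0.09 (exact permutation p = 1). A weak peak in its 3′ UTR, at 2.83, was in control 2 alone. Yap1 had no region on the exons that align with Wwtr1 exon 2, so the repeated signal of these paralogs lay in different parts of their mRNAs.

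**Figure D3:**
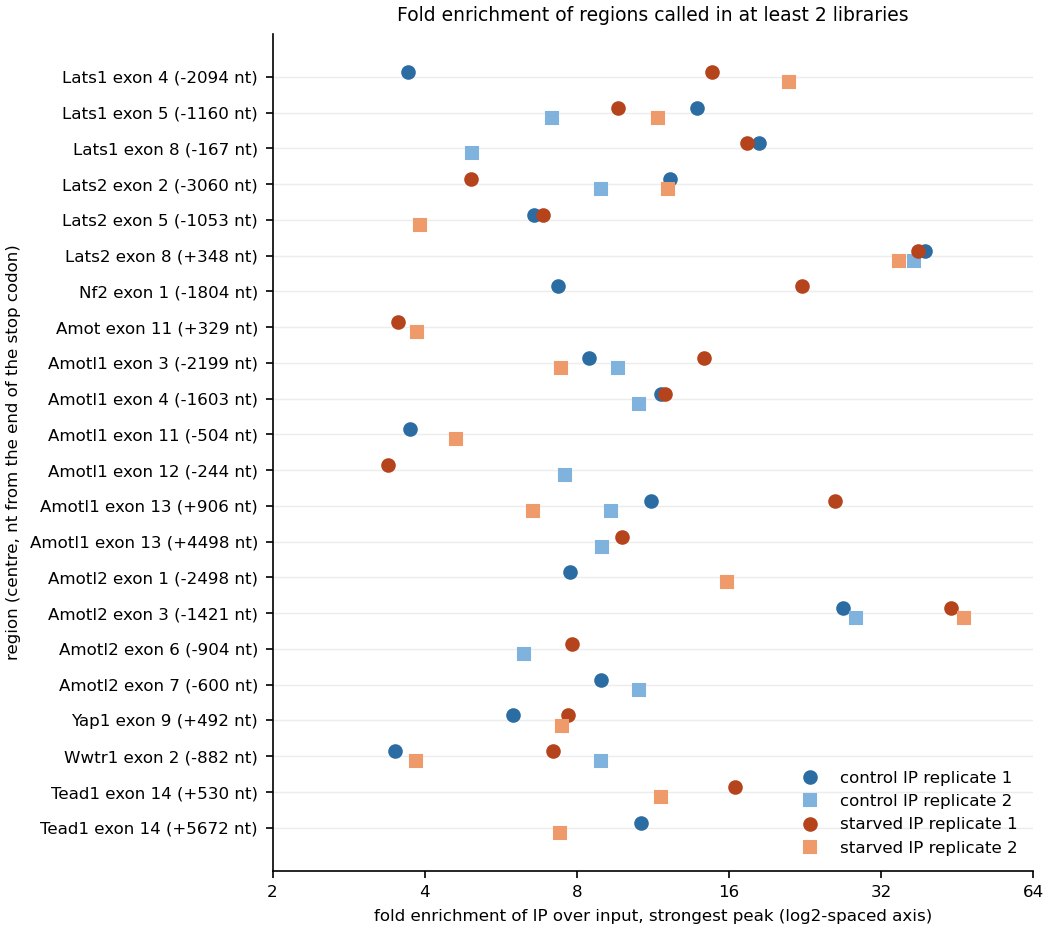
Points give the fold enrichment of the strongest peak in each IP library (x axis, log2-spaced) for the 22 Hippo pathway regions called in at least 2 libraries (y axis, with the centre of the region in nt from the end of the stop codon). Lats2 exon 8 shows 4 points close together near 37, Amotl2 exon 3 shows both starved points right of both control points, and in most other regions the groups mix or a library has no point.

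Over the 7 regions in all 4 libraries, the median log2 difference between starved and control was 0.09, and it was 0.10 over all 2257 such regions. The starved mean was higher in 4 of the 7, and in 54.2% of all. With each library centred on the median of its list, both medians turned negative, at -0.17 and -0.15. The 7 differences ran from -0.44 on Lats2 exon 2 to 0.71 on Amotl2 exon 3. The Hippo pathway median thus lay beside that of the whole series.

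**Figure D4:**
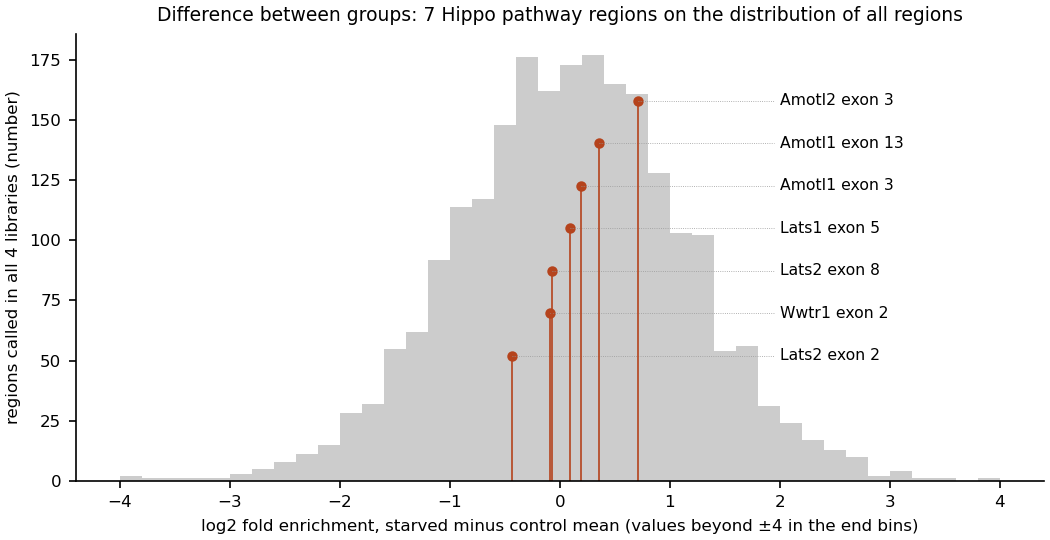
Grey bars count the 2257 regions called in all 4 libraries (y axis) by their difference in mean log2 fold enrichment, starved minus control (x axis), and red lines mark the 7 Hippo pathway regions, whose heights only spread the names. All 7 lie in the middle of the distribution, from -0.44 (Lats2 exon 2) to 0.71 (Amotl2 exon 3).

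Taken per gene, by the strongest peak in each library, 5 of the 9 genes had a value in all 4 libraries, where 29.2% of the 9779 genes did. The order of their means over the 4 libraries, on the log2 scale, was Lats2 at 5.22 ± 0.07, Amotl2 at 5.15 ± 0.41, Lats1 at 3.89 ± 0.71, Amotl1 at 3.64 ± 0.76 and Wwtr1 at 2.44 ± 0.66 (SD, n = 4). Lats2 and Amotl2, and likewise Lats1 and Amotl1, differed by less than their spread. The strongest peak of Lats1 changed place between libraries, from exon 8 in control 1 to exon 5 in control 2, exon 8 in starved 1 and exon 4 in starved 2. That of Amotl1 lay on exon 4 in both controls, on exon 13 in starved 1 and on exon 3 in starved 2. The differences of these genes given next thus compare different exons.

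The log2 differences of the strongest peak between starved and control were 0.74 for Lats1, -0.07 for Lats2, 0.31 for Amotl1, 0.71 for Amotl2 and -0.09 for Wwtr1. Their median was 0.31, the Amotl1 value, against 0.17 over all 2856 genes with a peak in all 4 libraries. Only Amotl2 had both starved values above both controls, 1 of 5 where 23.4% of all genes did, and none had both below, where 15.6% did. The 5 exact permutation p-values lay between 0.333 and 1, and none could have reached 0.05. Single libraries moved these differences: the Amotl1 value was -0.59 without starved 1 and 1.22 without starved 2, and the Wwtr1 value was -0.76 without control 1 and 0.59 without control 2. The Lats1 value was 0.06 without control 2 and 1.42 without control 1, whereas Amotl2 stayed between 0.67 and 0.75. The median of the 5 was -0.13 without starved 1. The labels do not say that the replicates were separate cultures, so these p-values measure the spread between these samples only.

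Beyond the 10 genes, a list of 39 further genes of the pathway was examined, 35 of which had a peak and 15 a peak in all 4 libraries. They held 140 regions, of which 13 were in all 4 libraries. Both starved values were above both controls in 3 of the 13 and below in 3 (23.1% each), against 22.9% and 18% of all such regions, so the genes named next are examples at a share near the background. Of the 140 regions, 10 (7.14%) were called in both controls alone and 6 (4.29%) in both starved libraries alone, against the same 4.15% and 3.2% of all regions. As many regions of the list were higher as lower.

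Among the upstream genes of this list, Wwc2, a relative of the scaffold KIBRA, had 2 coding regions above both controls after starvation. Exon 3 had 10.95, 4.31, 36.98 and 17.03 in control 1, control 2, starved 1 and starved 2, and exon 11 had 7.57, 7.73, 13.30 and 25.78. Map4k4, a kinase that can act on the LATS kinases, was the other gene in this direction, at 32.73, 10.56, 40.97 and 42.26 on exon 12. Wwc1, which encodes KIBRA itself, had a region on exon 11 in the starved libraries alone, at 25.54 and 55.95.

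The upstream genes in the opposite direction were Fat1, a giant cadherin, and Taok3, a kinase upstream of the pathway. Fat1 exon 9 had 48.77, 15.70, 9.95 and 14.27, and Taok3 exon 15 had 556.03, 815.18, 456.98 and 470.67, in the same order of libraries. Fat4, Taok2, Ptpn14, Stk4, Stk38 and Strn3 had a region in the controls alone, as did another exon of Taok3 and of Fat1. The Fat4 region on exon 3 was the strongest of these, at 75.22 and 48.46. Stk4, which encodes an upstream kinase of the LATS proteins, had 5.74 and 13.78 in its 3′ UTR.

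Among the effectors of the list, Vgll3, a TEAD cofactor, had 10.12 and 7.96 in its 3′ UTR in the controls alone. Among the target genes, Dlc1 had regions with different patterns. Its exon 2 was lower in both starved libraries, at 46.87, 77.37, 45.92 and 23.70, exon 3 was called in the controls alone at 58.91 and 59.19, and exon 9 in the starved libraries alone at 4.24 and 27.32. The remaining regions called in both starved libraries alone were on Crim1, Dlg5, Wtip and the first exon of Map4k4, with values from 4.06 to 20.60.

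The cells were checked against markers, of which a peak shows only that the transcript was present. Of 10 fibroblast markers, 5, 6, 6 and 5 had a peak in control 1, control 2, starved 1 and starved 2. Of 4 epithelial markers 1, 1, 1 and 0 did, of 3 endothelial markers 1, 0, 1 and 1, and of 3 leukocyte markers 0, 1, 0 and 0. In a bulk sample like this one, fewer cells carrying a methylated transcript and fewer methylated copies per cell cannot be told apart. The share of other cells in the Hippo pathway values was not tested.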

How the data were processed

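MeRIP-seq peak lists of 4 IP libraries (2 control, 2 starved MEF replicates) were used, and the 4 input libraries entered through the authors' peak calling only. Samples were grouped by their titles. Per the methods and the submitters' processing notes, the authors used Cutadapt for trimming and HISAT2 2.0.4 for alignment to mm10, called peaks with MACS2 per IP library against its input, and kept peaks on mRNA exons. The column names of the lists are those of an earlier MACS, so the caller version is uncertain. The deposited fold enrichment is a ratio of IP to input background. The deposited score is minus 10 times log10 of the p-value, from 50.01 to 3233.06, with most high values at exactly 3100. The authors also gave a false discovery rate as a percent. The authors' table of differential sites holds fold changes, p-values and directions from their own comparison and was not used here. The number of per-sample columns that could not be mapped was 0. The lists give no reads, so depth and counting error are unknown.

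The 10 genes and the wider list of 39 genes were chosen with earlier results of these data known. Every one of the 10 genes is named, with values per library for regions of at least 2 libraries, and a gene of the wider list where its groups did not overlap or 1 group alone had a region. Peaks overlapping by 1 bp were merged into regions, and the strongest peak of a library gave its value. Regions were placed by their centre on GENCODE M21 transcripts, which failed for 11.9% of all regions and for none of the 37. Starts were raised by 1 to count from 1. Log2 fold enrichment was compared per region by a two-sided exact permutation test over the libraries, with 0.333 as the smallest p. Fold changes are described without a test across genes. The alternatives were peaks of at least 4-fold or a score of at least 100, 8974 peaks in every library, an overlap of 50% of the shorter peak, centring on the library median, the mean over peaks, each library left out, and a replicate block. The calculations were tested on simulated data (14 of 14 quantities recovered, 4000 regions). Tools were matplotlib 3.10.9, scipy 1.17.1, pandas 2.3.3, numpy 2.4.6 and Python 3.11.15.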

Additional observations from a re-analysis of the deposited data

How the results depend on the processing

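Of the values recomputed under the alternatives, 88 held, 17 moved and 3 reversed. The medians with a replicate block are among the 88 and could not move. A count held within 1.5 times and a median within the replicate spread. A single gene, whose test cannot pass 0.05, held when its direction did, however far its value moved. Centring each library on its own median turned the median log2 difference over the 7 regions from 0.09 to -0.17, beside a median of -0.15 over all regions, and made Lats2 exon 8 the 1 region lower in both starved libraries (16.9% of all regions were then higher and 25.1% lower). With peaks of at least 4-fold, 6 regions remained in all 4 libraries, Wwtr1 exon 2 being lost, and the 2 regions in both starved libraries alone were on Lats1 exon 4 and Tead1, not Amot and Tead1. With a score of at least 100, 6 regions were in all 4 libraries, Wwtr1 exon 2 again being lost. Equal numbers of peaks per library gave 6 as well, and Lats1 exon 4 again in place of Amot.

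Leaving out 1 library at a time gave a difference in peaks per library from -3.0 to 2.0, from 7 to 10 regions in all remaining libraries, from 1 to 6 regions in controls alone, from 2 to 6 in starved libraries alone, from 1 to 4 regions higher and from 1 to 3 lower. A group left with 1 library meets these patterns more easily, and the shares of all regions rose too, to between 7.97% and 22.4% for controls alone, 6.85% and 19.9% for starved alone, 36.7% and 40.1% for higher and 27.9% and 34.6% for lower. The median log2 difference ran from -0.13 to 0.36 over regions and from -0.13 to 0.48 over genes. The low value over genes came without starved 1. The strongest Amotl1 peak ran from -0.59, reversed, without starved 1 to 1.22 without starved 2. The strongest Wwtr1 peak ran from -0.76 without control 1 to 0.59, reversed, without control 2, and was 0.36, also reversed, without starved 2. Amotl2 stayed between 0.67 and 0.75 and Lats2 between -0.13 and -0.01.

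With the replicate number as a replicate block, the medians were 0.09 over regions and 0.31 over genes, with 0.5 as the smallest paired p. The block averages the differences within replicate numbers, which equals the difference between group means. Its medians were thus fixed to match those without it and check nothing. The deviations of libraries sharing a number had a correlation of -0.02 over 2257 regions, so the numbers were not taken as pairs. The differences between libraries sharing a number ran the same way on Amotl2 exon 3 (0.71 and 0.71) and Lats2 exon 8 (-0.05 and -0.10). On the other Hippo pathway regions in all 4 libraries they ran opposite ways. The share of all regions that keep their direction was not computed, so no result is read from this.

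Depth is unknown, so a region without a peak in a library is not shown to lack m6A there.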
